A study of Rattus norvegicus with 49 samples.

Results

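A list of 40 genes that dividing cells use was followed through the rat thyroid after 131I, a beta-emitting radioactive iodine that the gland takes up. The genes were chosen by name and not by their values, though with earlier results of these data known. They cover copying of DNA, entry into mitosis, the spindle and cell separation. Of the 40 genes, 35 had a probe on the array and 5 were not matched to one, namely Mki67, Top2a, Bub1b, Cenpe and Mcm5. Mki67 and Top2a, the most used histological markers of dividing cells, were therefore not analysed here. Each of the 35 genes is given by its brightest probe, and all 35 were among the 24105 of 30367 probes well above background on at least 3 arrays. The depth of measurement was uneven, since Ccne2 was well above background on 8 of 49 arrays, Cdca8 on 15, Kif2c on 26 and Cenpf on 28, while Pcna, Mcm7, Nusap1 and Cdc20 were so on 49.

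Thyroids of male Sprague Dawley rats were measured on 49 one-colour arrays, 1 gland on each array. Rats injected with 50 kBq at 5 weeks of age (young rats) were killed 3, 6 or 9 months later, and young rats given 0.5, 5 or 500 kBq were killed at 9 months. Rats injected with 50 kBq at 17 weeks of age (adult rats) were killed 3, 6 or 9 months later. Untreated rats were 4, 7, 10 and 13 months old and each exposed group was compared with untreated rats of its own age. Every group had 4 arrays, except for 3 arrays at 5 kBq and in untreated rats of 7 and 13 months. The labels do not say which cells of the gland or of the tissue around it gave the RNA. A level is the log2 of the background-subtracted spot signal minus the 75th percentile of the array, so that a level below 0 is dimmer than that percentile, and levels of different probes were not compared.

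Of the 49 arrays, 3 stood apart. In young rats 3 months after 50 kBq, replicate 2 had 43.1% of its spots well above background and a 75th percentile of 61.0 signal units, against 69.2% or more and 783 to 4172 in the other 48 arrays, and 7 of the 35 genes were well above background on it against 26 or more elsewhere. Replicate 3 of the same group and replicate 2 of the untreated rats of 7 months were low in most genes of the follicular thyrocyte, the hormone-producing cell. Thyroglobulin (Tg) was at 0.14 and -0.69 in these 2 arrays against 6.41 or more elsewhere, and Pax8, a transcription factor of that cell, at -8.14 and -6.12 against -0.09 or more. Foxe1 and Slc26a4, also on the thyrocyte list, lay within the range of the other arrays. The same 2 arrays had the lowest list means of all arrays for C cell genes (-5.384 and -5.884) and for parathyroid genes (-7.716 and -7.527). Which tissue these 2 arrays held was not tested.

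The cell division cycle runs through a fixed series of steps. The Mcm proteins form the helicase that is loaded on DNA before replication, Pcna is the clamp that holds the polymerase, and Rrm1, Rrm2, Tyms and Tk1 supply nucleotides. Cyclins E and A act before and during replication, and cyclin B with the kinase Cdk1 drives mitosis. Plk1, Aurka and Aurkb are mitotic kinases, Bub1 belongs to the spindle checkpoint, and Cdc20 and Ube2c act with the ubiquitin ligase that starts anaphase. Many genes of the replication step carry E2F sites in their promoters, and many genes of mitosis carry a CHR element with nearby CCAAT boxes, which the DREAM complex and B-Myb with Foxm1 use. Follicular cells of the adult thyroid divide rarely.

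Promoter sequences are given for genes of both steps, since their motifs are set beside the behaviour of the genes across arrays in the paragraphs that follow. The table of RefSeq promoters (rat build GRCr8, 250 bases before to 50 bases after the annotated start) held 32 of the 40 genes. Letters were searched on both strands. A CHR element was taken as TTTGAA and also as TTTAAA. The box named CCAAT was searched by those letters. An E2F site was taken as GCGGGAA and also as GCGCGAA. The 150 bases before the start of 3 genes of mitosis and of 2 genes of the replicative helicase follow, 5′ to 3′ on the strand of the gene, with the matched letters in capitals. They lie at chr2:33655226-33655375 (minus strand) for Ccnb1, chr20:19265143-19265292 (plus strand) for Cdk1, chr1:186147508-186147657 (plus strand) for Plk1, chr13:42404353-42404502 (minus strand) for Mcm6 and chr12:22163179-22163328 (minus strand) for Mcm7. Ccnb1 encodes cyclin B1, Cdk1 its kinase and Plk1 a kinase of mitosis, and Mcm6 and Mcm7 are subunits of the helicase.
Ccnb1: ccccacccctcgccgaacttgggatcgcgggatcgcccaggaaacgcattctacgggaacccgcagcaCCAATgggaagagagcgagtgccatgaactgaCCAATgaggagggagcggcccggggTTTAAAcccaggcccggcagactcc
Cdk1: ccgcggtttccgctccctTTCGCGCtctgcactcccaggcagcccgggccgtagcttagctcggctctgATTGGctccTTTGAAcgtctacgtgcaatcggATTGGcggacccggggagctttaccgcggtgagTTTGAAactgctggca
Plk1: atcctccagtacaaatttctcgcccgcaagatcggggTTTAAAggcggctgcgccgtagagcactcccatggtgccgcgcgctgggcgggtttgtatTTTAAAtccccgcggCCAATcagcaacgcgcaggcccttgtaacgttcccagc
Mcm6: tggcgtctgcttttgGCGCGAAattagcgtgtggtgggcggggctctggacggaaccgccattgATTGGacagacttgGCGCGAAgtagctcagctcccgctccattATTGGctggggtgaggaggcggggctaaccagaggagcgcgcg
Mcm7: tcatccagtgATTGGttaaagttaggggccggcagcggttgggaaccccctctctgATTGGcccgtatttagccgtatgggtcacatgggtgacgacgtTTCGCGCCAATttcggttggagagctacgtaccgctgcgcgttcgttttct

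The capitals mark CHR elements and CCAAT boxes in Ccnb1 and Plk1, both of these and an E2F site in Cdk1, and CCAAT boxes and E2F sites without a CHR element in Mcm6 and Mcm7. In the last stretch of capitals in Mcm7 an E2F site and a CCAAT box overlap. Over the whole windows, 22 of 32 promoters of the list (68.8%) held a CHR element against 28.3% of 33469 promoters of the table, 23 (71.9%) held a CCAAT box against 37.5%, and 8 (25%) held an E2F site against 5.56%. The E2F matches were in the promoters of Mcm2, Mcm3, Mcm5, Mcm6, Mcm7, Rrm1, Cdk1 and Kif23. A match describes letters and is not a site shown to be used, and the absence of a match says only that these letters are not in the window.

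Across the arrays most of the mitotic genes were high in the same arrays, whereas the 6 genes of licensing and the fork followed them less closely. Over the 48 arrays without the dim array, 22 of the 35 genes had a Pearson correlation of at least 0.7 with the mean of the other 34 genes, and 13 had a lower one. The highest values were those of Ccna2 (cyclin A2) at 0.98, Kif11 (a kinesin that separates the spindle poles) and Nusap1 (a spindle protein) at 0.97, Cdk1 at 0.97 and Cdca3 (a trigger of mitotic entry) at 0.97. By role, the median correlation was 0.96 for the 3 genes of anaphase and mitotic entry, 0.95 for the 6 genes of the cyclin group, 0.92 for 8 kinesin, spindle and kinetochore genes and 0.23 for 6 genes of licensing and the fork. The points share arrays, glands and scaling, so the values are a description and not a test.

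Among the replication genes, Mcm3 correlated at 0.60, Mcm6 at 0.47, Mcm4 at 0.23, Mcm2 at 0.22, Pcna at 0.21 and Mcm7 at -0.14. Of the genes of nucleotide supply, Rrm2 (0.78) and Tk1 (0.71) had values in the range of the mitotic genes, and Tyms (0.21) and Rrm1 (-0.02) did not. Outside replication the exceptions were Ccne1 (cyclin E1, 0.58), Foxm1 (0.54), Bub1 (0.38), Ccne2 (cyclin E2, 0.05) and Tpx2 (a spindle assembly factor, -0.18). The probe of Tpx2 was well above background on all 49 arrays, and its level ranged from -2.11 to 2.03. Among the promoters in the table, 15 of 18 genes with a correlation of at least 0.7 held a CHR element and 2 an E2F site, while of 9 genes below 0.7 a CHR element was in 3 and an E2F site in 5. Mybl2 and Tk1 had a correlation of at least 0.7 without any of the 3 motifs in the window. The division at 0.7 was made after the values were seen.

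**Figure D1:**
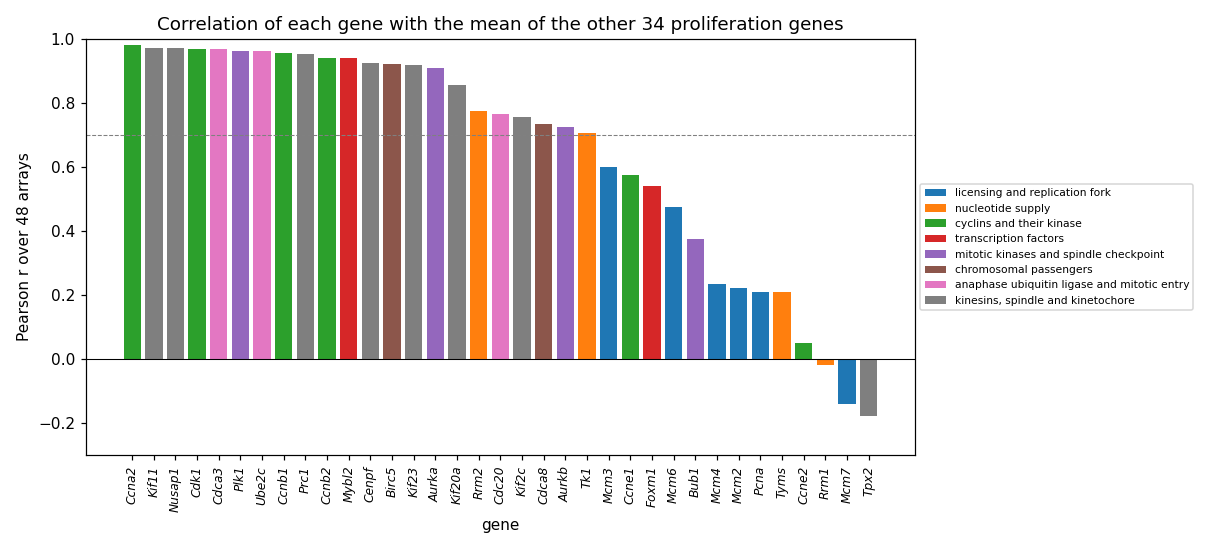
Pearson correlation (vertical axis, no unit) of each of 35 genes with the mean of the other 34 over 48 arrays, coloured by role, with a dashed line at 0.7. The bars fall from 0.98 for Ccna2 to -0.18 for Tpx2, and the 6 licensing and fork genes all lie below the line.

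At the median of the list, the genes varied more between glands of the same group than most transcripts, but this did not hold for every role. The SD within groups had a median of 0.76 log2 units over the 35 genes and 0.51 over all probes tested, and 0.71 against 0.41 without the dim array. By role over 49 arrays, the medians of nucleotide supply (0.45) and of licensing and the fork (0.32) lay below that of all probes. Those of the other roles lay above it, from 0.59 for mitotic kinases and the spindle checkpoint to 0.97 for kinesin, spindle and kinetochore genes. The mean over the 35 genes, each centred on its own mean, ranged from -0.94 in replicate 2 of the untreated rats of 7 months to 1.20 in replicate 1 of the untreated rats of 4 months. High arrays occurred in untreated and exposed groups alike, with 1.13 in replicate 3 of the untreated rats of 4 months, 1.19 in replicate 2 of young rats 9 months after 50 kBq, 1.02 in replicate 4 of adult rats at 3 months and 0.88 in replicate 4 of young rats at 6 months. The dim array was at 1.10, with 7 of the 35 genes well above background.

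**Figure D2:**
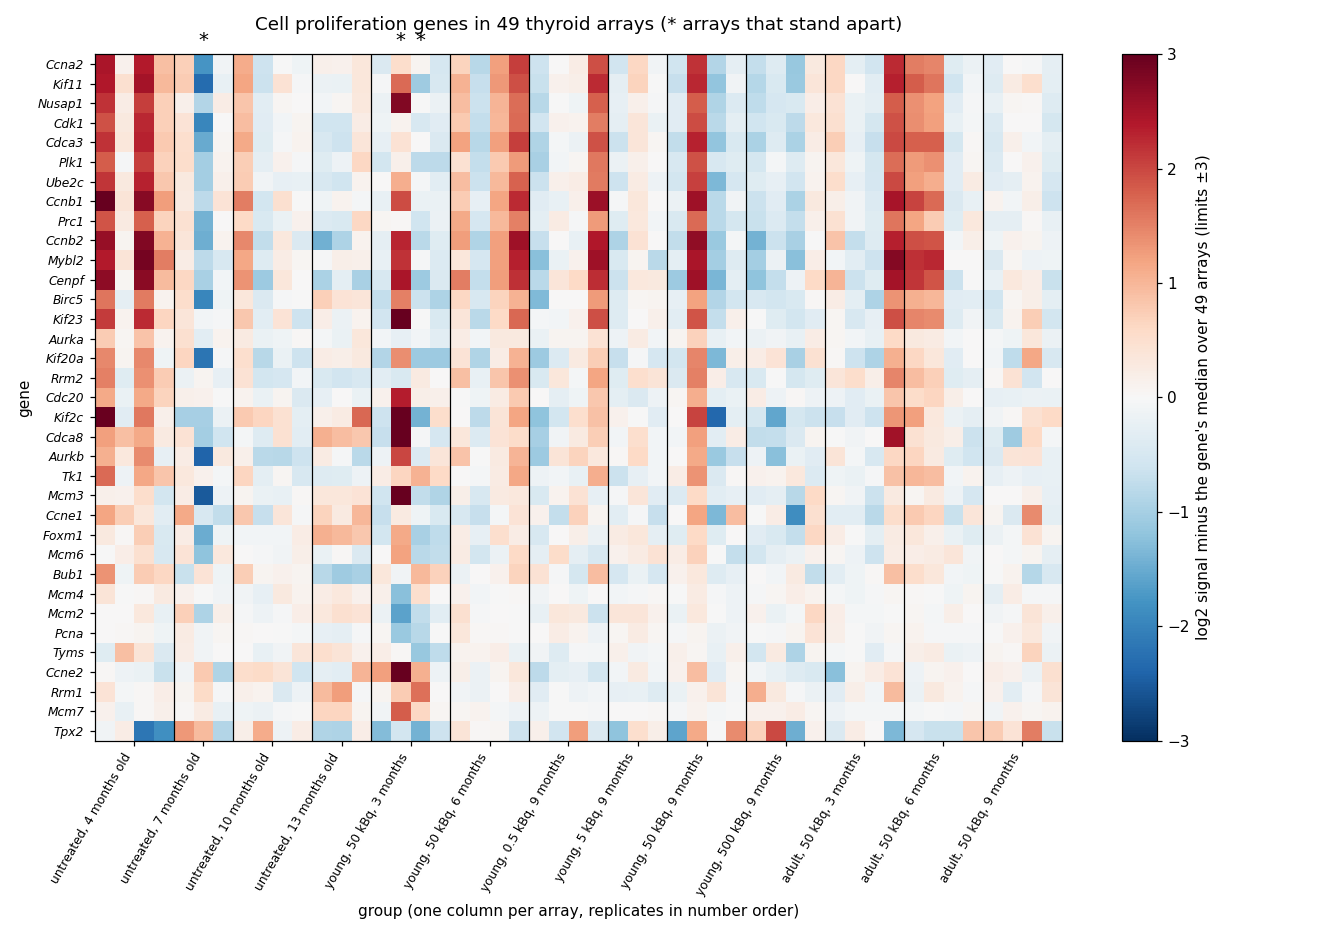
Level of each of 35 genes (vertical axis, ordered by the correlation with the other genes) in each of 49 arrays (horizontal axis, by group), as log2 signal minus the median of the gene, from blue (low) to red (high), with colours limited to ±3. Single columns are red from Ccna2 down to Tk1 in several groups, 2 of them in untreated rats of 4 months, and stars mark the 3 arrays that stood apart.

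Genes outside the list with the nearest pattern were other genes of mitosis. The 10 most alike over 49 arrays, by correlation with the mean of the 35 genes, were Kif20b, Cenpt, Cep55, Ska1, Nuf2, Racgap1, Pttg1, Ckap2, Spag5 and Ttk, from 0.97 to 0.94. Cenpt, Ska1, Nuf2, Spag5 and Ttk are parts of the kinetochore, the spindle or their checkpoint, and Cep55 and Racgap1 act when cells separate. Without the dim array Knstrn (0.97) and Aspm (0.97) entered the first 3 places.

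Genes of squamous epithelium, the stratified lining of organs such as the oesophagus, were high in the same glands. Their list is named basal squamous epithelium, and which layer gave the signal was not tested. Of 12 genes of that list 10 were tested. Over 48 arrays the 10 arrays with the highest mean of the proliferation genes were also the 10 with the highest mean of the squamous genes, as were 4 of the first 5 and 12 of the first 15. Keratins 4, 13, 14 and 5 correlated with the mean of the proliferation genes at 0.82, 0.79, 0.82 and 0.81, whereas Tp63, a basal transcription factor that was well above background on all 49 arrays, did so at -0.11. Dsg3 was at 0.87, Krt15 at 0.75, Perp at 0.71, Itgb4 at 0.58 and Dsc3 at 0.42. The range of Krt4 was -6.34 to 6.00 and that of Krt13 -9.93 to 6.04.

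The arrays fell into separate sets by the squamous genes, and after this was seen they were divided at a mean of 1. In 13 arrays with a squamous mean from 1.84 to 4.65, the mean of the proliferation genes was between -0.18 and 1.20, with a median of 0.71. In 35 arrays with a squamous mean from -2.89 to 0.30 it was between -0.94 and 0.34, with a median of -0.29. The correlation of both means was 0.91 within the 13 arrays and 0.44 within the 35. Within the 35 arrays 16 genes had a correlation of at least 0.7 with the other genes. Of these, 14 also had it over 48 arrays, among them Kif11 (0.93), Ccna2 (0.93), Cdca3 (0.88), Cdk1 (0.88), Nusap1 (0.87) and Plk1 (0.845), and 2 were the helicase genes Mcm2 (0.71) and Mcm3 (0.76), which did not. In the other direction, the remaining genes with at least 0.7 over 48 arrays lay below it within the 35. They were Cenpf (0.69), Aurkb (0.65), Cdca8 (0.61), Kif23 (0.595), Kif2c (0.38), Rrm2 (0.145), Tk1 (-0.21) and Cdc20 (-0.25). Bub1, at 0.38 over 48 arrays, was at -0.57. The set of 13 held 3 of the 4 untreated rats of 4 months as well as young and adult exposed rats. In whole glands, fewer cells of a type and less RNA per cell cannot be told apart.

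**Figure D3:**
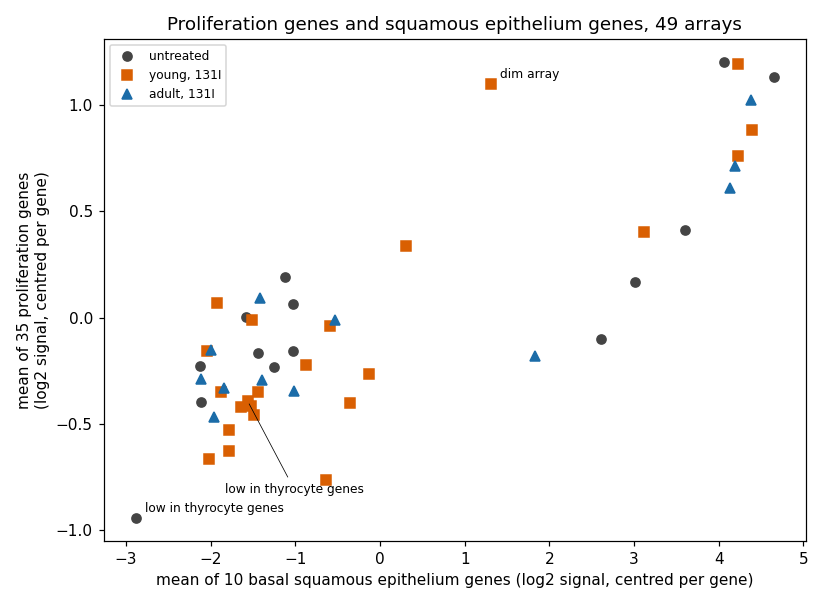
Mean of the 35 proliferation genes (vertical axis) against the mean of 10 basal squamous epithelium genes (horizontal axis), both in log2 units centred per gene, one point per array, for untreated (circles), young exposed (squares) and adult exposed rats (triangles). Arrays of all 3 kinds lie at the upper right, and the dim array lies apart at 1.31 and 1.10.

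At 3 months after 50 kBq in young rats, the difference from untreated rats of 4 months was below 0 in 29 of the 35 genes, with 0 of the 35 and 0% of all probes called, that is, past an adjusted p under 0.01 and a fold change of 1.5. The median by role was -1.47 for the cyclin group, -1.20 for anaphase and mitotic entry, -0.91 for kinesin, spindle and kinetochore genes and -0.22 for licensing and the fork. The mitotic genes Cdc20 (0.02), Tpx2 (0.00) and Aurkb (-0.19) lay near 0. For Cdc20 and Aurkb this rested on the dim array, at -0.45 and -4.26. The other exposed glands were at -2.64 and -5.90 or lower, and the untreated means were -2.12 and -5.62. Cdk1 was at -2.46, -2.22, -2.80 and -2.67 in the 4 exposed glands and at -0.40, -2.03, -0.07 and -1.59 in the untreated glands. Every exposed gland was below every untreated gland, by -1.52 (SE 0.57, limma adjusted p = 0.0552, exact permutation p = 0.0286, the smallest possible). Aurka (-0.62, SE 0.21, limma adjusted p = 0.0357) and Prc1, a protein of the central spindle (-1.32, SE 0.49, limma adjusted p = 0.0517), likewise did not overlap, which holds for 3 of 35 genes and for 1.51% of all probes. The second exposed value of Cdk1 is that of the dim array and the third that of the array low in thyrocyte genes, and Cdk1, Aurka and Prc1 were each well above background in 3 of the 4 exposed glands. Without the dim array the differences were -1.62, -0.60 and -1.39 (limma adjusted p = 0.158, 0.152 and 0.158), and without all 3 arrays that stood apart -1.54, -0.63 and -1.20 (limma adjusted p = 0.463, 0.459 and 0.47).

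Plk1 had the lowest difference of the list. It was at -3.46, -2.75, -3.69 and -3.69 in the exposed and at -1.09, -2.94, -0.83 and -2.21 in the untreated glands, a difference of -1.63 (SE 0.53, limma adjusted p = 0.034). The groups overlapped by replicate 2 of each, which in the exposed group is the dim array, and without that array Plk1 was at -1.85 (limma adjusted p = 0.141). Ccnb1 was at -4.99, -2.81, -4.96 and -4.94 against -1.65, -4.37, -2.02 and -3.49. The exposed glands lay close to each other except for the dim array, the untreated glands were spread over a wide range, and the difference of -1.54 (SE 0.71) had a limma adjusted p of 0.11. Ccna2 (-1.55, SE 0.66, limma adjusted p = 0.0878) and Kif11 (-1.55, SE 0.73, limma adjusted p = 0.116) had differences of like size. Mybl2, a transcription factor of the mitotic genes, was well above background in 0 of 4 exposed and 4 of 4 untreated glands, at least 1.70-fold lower (limma adjusted p = 0.162).

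The median difference of the 35 genes was -0.65 and that of all probes 0.26. At an unadjusted p under 0.05, 13 genes (37.1%) were lower against 10.1% of all probes, and 2 (5.71%) were higher against 27.6%. Of the licensing and fork genes, Mcm2 was at -0.73 (SE 0.25, limma adjusted p = 0.0417), Pcna at -0.47 (SE 0.16, limma adjusted p = 0.0408) and Mcm7 at 0.58 (SE 0.20, limma adjusted p = 0.045). For Pcna, 2 exposed glands (-0.79 and -0.51) were below and 2 (0.37 and 0.31) among the untreated values of 0.19 to 0.40. These 2 low glands were the dim array and the array low in thyrocyte genes. Mcm7 was at 2.69 and 1.49 in these 2 arrays, in that order. Its other exposed glands, at 0.77 and 0.92, lay among the untreated values of 0.64 to 1.02. Without the 3 arrays that stood apart Pcna was at 0.02 and Mcm2 at -0.27.

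Ccne2 had the highest difference, 1.58 (SE 0.42, limma adjusted p = 0.0217), but its probe was not well above background on any of these 8 arrays, and the dim array had its highest level (-4.04). A second probe of Ccna2 gave -1.54 and one of Foxm1 -0.42 against -0.44. Second probes of Prc1 (-0.57 against -1.32), Mybl2 (-0.59 against -1.42), Cenpf (-0.53 against -1.49) and Mcm4 (-0.14 against -0.31) had the same sign and a smaller difference. Those of Prc1, Mybl2 and Cenpf were well above background on 16, 13 and 17 arrays. Second probes of Mcm2 (0.04), Rrm2 (0.31 against -0.95), Mcm3 (-0.44 against 0.83) and Kif2c (0.56 against -0.65) differed in sign from the first. Rrm2, Kif2c and Mcm2 have no settled direction in this comparison, and the higher value of Mcm3 rested on the dim array. The first probe of Mcm3 was at 4.16 in that array and at -2.28, -2.40 and -2.58 in the other exposed glands. The untreated glands lay between -2.22 and -1.14. Cdc20, the activator of the anaphase ligase, lay between -2.68 and -0.45 in the exposed glands, and the dim array was highest.

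The size of this difference rested on single arrays. Without the dim array, 21 genes were lower at an unadjusted p under 0.05 and the median was -0.92, and without replicate 3 of the untreated rats 5 were lower. Without all 3 arrays that stood apart, 19 genes were lower (5.20% of all probes), the median was -1.07 and that of all probes 0.03, and Plk1 was at -1.81 (limma adjusted p = 0.459). The median was -1.26 among arrays of the first scan date and -0.51 among those of the second. The squamous genes were also lower: their mean was between 3.01 and 4.65 in 3 untreated glands and -1.59 in the other, between -1.64 and -1.44 in 3 exposed glands and 1.31 in the dim array. With that mean as a term of the fit, the median of the proliferation genes was -0.11 and 3 genes were lower, and without the 3 arrays as well it was -0.29 and 0 were lower. For the fits with that term the shares of all probes are not given, so their counts are not read as a result about the genes. Other lists of tissue markers moved in the same comparison. The mean of 6 cartilage genes was 1.64 to 3.28 in the exposed and -0.73 to 1.45 in the untreated glands, and that of the 5 of 14 thymus genes tested was 0.02 to 3.06 against -0.90 to -0.03, both without overlap. The means of skeletal muscle (7 of 8 genes, 0.52 to 2.14 against -0.68 to 0.74), airway (5 of 6 genes, -0.60 to 2.49 against -1.16 to 2.96) and parathyroid genes (3 of 3, -7.72 to 0.71 against -0.70 to 2.18) overlapped. The part of squamous and other tissue in the difference was not tested.

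**Figure D4:**
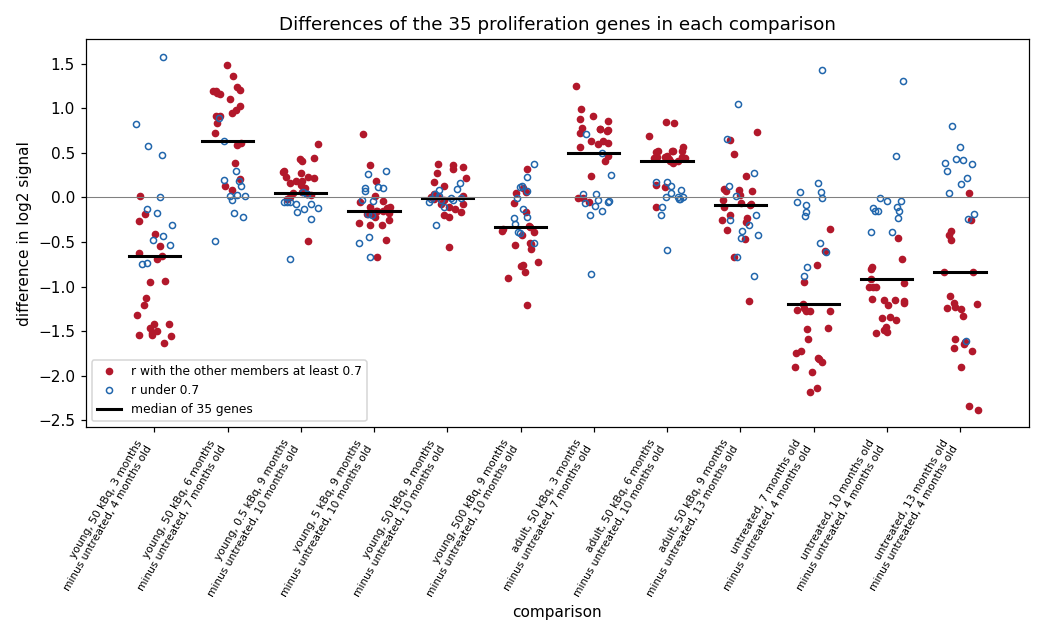
Difference in log2 signal (vertical axis) of each of 35 genes in the 12 comparisons between groups (horizontal axis), with filled points for the 22 genes with a correlation of at least 0.7, open points for the other 13 and a bar at the median. The 22 genes were chosen on these same arrays. Of the 35 points 29 lie below 0 at 3 months in young rats, 31, 33 and 24 in untreated rats of 7, 10 and 13 months against 4 months, and 26 at 9 months after 500 kBq.

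At 6 months after 50 kBq in young rats, 31 of 35 genes were above 0, with a median of 0.64 against untreated rats of 7 months and -0.10 for all probes. None was called, and 2 genes (5.71%), Aurkb and Prc1, were higher at an unadjusted p under 0.05 against 3.46% of all probes, and 0 were lower against 3.36%. Aurkb, the kinase of the chromosomal passenger complex, was at -5.40, -6.27, -5.98 and -5.22 in the exposed and at -6.02, -8.65 and -5.96 in the untreated glands. The value of -8.65 belongs to the array low in thyrocyte genes, and without it the untreated values lie within the range of the exposed ones. Kif11 was at 1.49 (SE 0.79, limma adjusted p = 0.754) and Ccnb2 at 1.36 (SE 0.87, limma adjusted p = 0.811). Without that array the median was 0.27 and 0 genes were higher, and without replicate 2 of the exposed rats 11 were higher, the highest median with an array left out being 0.98. With the replicate number as a block 1 gene was higher. With the squamous mean as a term the median was -0.07. No scan date held arrays of both groups, so that the date and the groups cannot be told apart.

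At 9 months, no gene was called at any activity, against 0% to 0.0124% of all probes. The median of the 35 genes was 0.05 after 0.5 kBq, -0.15 after 5 kBq, -0.00 after 50 kBq and -0.33 after 500 kBq, against the same 4 untreated glands of 10 months. No gene was lower or higher at an unadjusted p under 0.05 in any of the 4 comparisons, and the share of all probes that were, given as higher and lower in the order of activity, was 0.436% and 0.527%, 1.08% and 0.809%, 1% and 0.477%, and 0.942% and 0.734%. Cdk1 was at -2.90, -2.20, -2.22 and -0.79 after 0.5 kBq, at -2.58, -1.95 and -2.51 after 5 kBq, at -2.66, -0.35, -3.13 and -2.62 after 50 kBq and at -2.91, -2.78, -3.11 and -2.00 after 500 kBq. The untreated glands had -1.39, -2.65, -2.40 and -2.24. Single high glands stood in the groups of 0.5 and 50 kBq and among the untreated glands, and the groups overlapped.

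Plk1 lay between -3.89 and -1.33 after 0.5 kBq, -3.09 and -2.76 after 5 kBq, -3.39 and -1.004 after 50 kBq and -3.43 and -2.83 after 500 kBq, against -3.19 and -2.17 in untreated glands. After 500 kBq 26 of 35 genes were below 0. Kif2c, a kinesin that takes microtubules apart, was well above background in 0 of 4 exposed glands of that group and in 3 of 4 untreated glands, at least 1.14-fold lower (limma unadjusted p = 0.11). The mean of the 4 activities against the untreated rats had a median of -0.09, and the slope on log10 of the activity had a median of -0.09 per log10 unit. In both, 0 genes were called and 0 had an unadjusted p under 0.05. Within scan dates the sign of the median was not the same for 0.5, 5 and 50 kBq, with -0.13 and 0.95, 0.10 and -0.11, and -0.30 and 0.35.

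**Figure D5:**
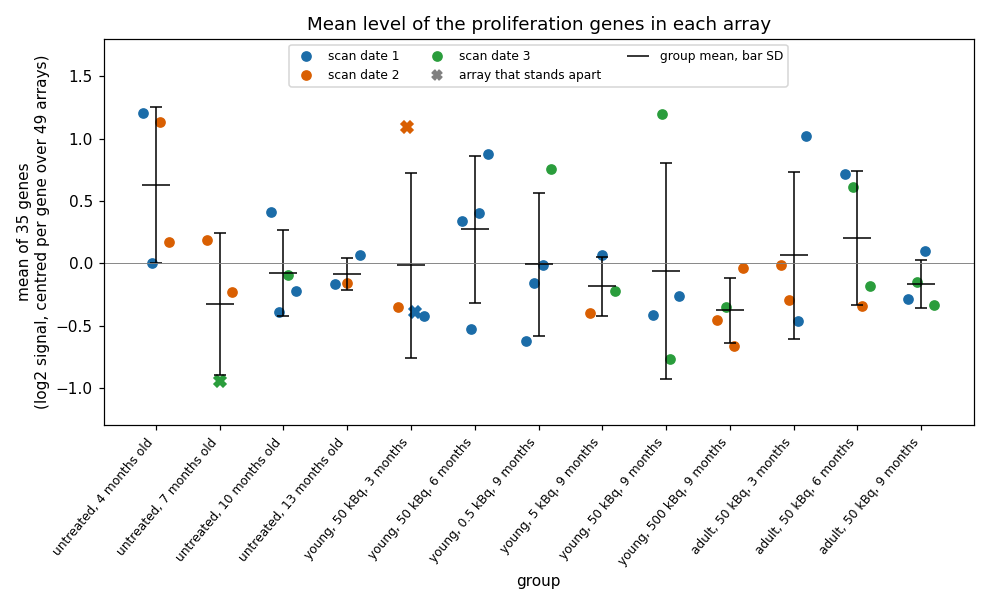
Mean of the 35 genes (vertical axis, log2 signal centred per gene over 49 arrays) in each array by group (horizontal axis), with the group mean and SD, points coloured by scan date and crosses for the 3 arrays that stood apart. Group means run from -0.38 after 500 kBq to 0.63 in untreated rats of 4 months, and single arrays reach above 1 in 3 groups besides the dim array.

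In adult rats no gene was called either. At 3 months the median was 0.50 against untreated rats of 7 months and 0 genes had an unadjusted p under 0.05, against 1.90% of all probes higher and 3.02% lower. Cdk1 was at -1.84, -2.52, -2.85 and -0.41 in the exposed and at -1.91, -4.27 and -2.30 in the untreated glands, so that 1 high exposed gland and the untreated array low in thyrocyte genes set the ends of the range. Without that array the median was 0.16, without replicate 1 of the untreated rats 3 genes were higher at an unadjusted p under 0.05, and among arrays of the second scan date it was -0.09. At 6 months the median was 0.41 against untreated rats of 10 months. Cdk1 was at -0.93, -1.08, -2.55 and -2.37, of which the first 2 glands were among the 10 highest in squamous genes. Mybl2 (0.85, SE 0.75) and Ccnb2 (0.83, SE 0.80) had the highest differences, and 0 genes had an unadjusted p under 0.05, against 0.602% and 0.212% of all probes.

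At 9 months in adult rats the median was -0.08 against untreated rats of 13 months, and that of all probes -0.12. No gene was called, against 0.224% of all probes higher and 0.452% lower, and 2 genes (5.71%) were lower at an unadjusted p under 0.05 against 12.4%, and 0 higher against 10.5%. With an array left out, between 0 (replicate 1 of the untreated rats) and 3 (replicate 3 of them) were lower. Foxm1, a transcription factor of the mitotic genes, was at -3.52, -3.40, -2.90 and -3.24 in the exposed and at -2.27, -2.37 and -2.52 in the untreated glands. The groups did not overlap, with a difference of -0.88 (SE 0.36, limma adjusted p = 0.138, exact permutation p = 0.0286), and 5 of 35 genes (14.3%) lay wholly lower against 16.2% of all probes. Untreated rats of 4 months had Foxm1 between -3.80 and -2.60, so the untreated rats of 13 months were the high group. Cdca8, a chromosomal passenger, was at -1.16 (SE 0.60, limma adjusted p = 0.246) and Tpx2 at 1.05 (SE 0.69, limma adjusted p = 0.382). The untreated glands of 13 months were low in skeletal muscle genes, with list means of -3.31 to -2.50. In the exposed group replicate 3 was at -9.07, the lowest of all arrays, and the other 3 glands were at 0.35, 0.55 and 0.64. The part of muscle tissue in the levels of the proliferation genes was not tested.

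The 50 kBq difference in young rats minus that in adult rats had a median of -0.94 at 3 months, 0.39 at 6 months and 0.16 at 9 months, and no gene was called. At 3 months 10 genes (28.6%) were lower at an unadjusted p under 0.05 against 6.78% of all probes, led by Kif11 (-2.81, SE 1.08, limma adjusted p = 0.0901) and Cdk1 (-2.44, SE 0.84, limma adjusted p = 0.0725). At 6 months 0 genes and at 9 months 1 gene, Bub1 (-0.97, SE 0.46, limma adjusted p = 0.336), had an unadjusted p under 0.05. At 3 months, without replicate 2 of the untreated rats of 7 months 2 genes were lower, without the 3 arrays that stood apart 3 and with the squamous mean as a term 1, whereas without the dim array 20 were lower. Shares of all probes are not given for these fits, so nothing is read from these counts. The median with an array left out lay between -1.59 and -0.70.

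Among untreated rats, 23 of the 35 genes had their highest mean at 4 months, 2 at 7, 1 at 10 and 9 at 13 months. The mitotic genes among the exceptions were Tpx2, with means of -0.91, 0.52, 0.40 and -0.49 in order of age, Cdca8 (-6.24 at 4 and -6.19 at 13 months) and Foxm1 (-3.19 at 4 and -2.39 at 13 months). Against 4 months, the median of the 35 genes was -1.20 at 7 months, -0.91 at 10 months and -0.84 at 13 months, while that of all probes was 0.10, -0.02 and 0.20. These comparisons share the 4 glands of 4 months. At an unadjusted p under 0.05, 17 genes (48.6%) were lower at 7 months against 4.06% of all probes and 1 gene higher against 3.96%, 9 (25.7%) were lower at 10 months against 1.33%, and 12 (34.3%) at 13 months against 14.2%. No gene was called at 7 or 10 months, against 0.00415% and 0.0124% of all probes higher and 0% lower. At 7 months Kif11 (-2.18, SE 0.79, limma adjusted p = 0.437) and Mybl2 (-2.14, SE 0.81, limma adjusted p = 0.469) had the lowest differences and Tpx2 the highest (1.43, SE 0.69, limma adjusted p = 0.603). At 10 months Mybl2 was at -1.52 and Ccnb1 at -1.51, and Tpx2 at 1.31.

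Ccnb1 shows the spread behind these values. It was at -1.65, -4.37, -2.02 and -3.49 at 4 months, at -4.48, -5.55 and -4.33 at 7 months, at -3.21, -5.30, -4.28 and -4.78 at 10 months and at -4.89, -4.64 and -4.82 at 13 months. The glands of 4 months covered most of the range, and those of 13 months lay close together below them. The difference at 13 months was -1.90 (SE 0.77, limma adjusted p = 0.0734). Without the array low in thyrocyte genes, 3 genes were lower at 7 months and the median was -0.76. Without replicate 1 of the rats of 4 months 0 genes were lower at 10 months, and without replicate 3 of them 6 were at 13 months. Without replicate 2 of the rats of 4 months, by contrast, 21 genes were lower at 7 months and 18 at 10 and at 13 months. With the squamous mean as a term, the medians were -0.08, -0.44 and 0.01 and 0, 4 and 2 genes were lower. The shares of all probes in that fit are not given, so these counts are not read as a result about the genes.

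Bub1 was lower at 13 than at 4 months in untreated rats and was the only one of the 35 genes called in any comparison. Its means were -2.13, -2.91, -2.52 and -3.74 in order of age, so there was no steady fall. It was at -1.44, -2.90, -2.02 and -2.17 at 4 months, at -3.46, -2.37 and -2.91 at 7 months, at -2.04, -2.69, -2.65 and -2.70 at 10 months and at -3.62, -3.84 and -3.77 at 13 months. The glands of 13 months lay together below all other untreated glands. Adult rats of the same age, 9 months after 50 kBq, were at -2.79, -2.68, -3.64 and -3.25. The difference between 13 and 4 months was -1.61 (SE 0.33, limma adjusted p = 0.00236, exact permutation p = 0.0571), and the slope was -0.15 per month (limma adjusted p = 0.00669). This is 1 of 35 genes (2.86%) called lower against 2.36% of all probes at 13 months and 1.45% for the slope, so that the share lay near that of all probes. The call was lost without replicate 1 of the rats of 4 months (-1.38, limma adjusted p = 0.0189), without replicate 1 (-1.67, limma adjusted p = 0.0174) or replicate 2 (-1.56, limma adjusted p = 0.0216) of those of 13 months, with normexp background correction (-1.10, limma adjusted p = 0.0247) and in a fit of both groups alone (-1.61, limma adjusted p = 0.024). With the squamous mean as a term the difference was -1.26 (limma adjusted p = 0.00806). The second probe of Bub1 was well above background on 0 arrays and was not tested. The same glands of 13 months were low in skeletal muscle genes.

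Next to Bub1, Tk1 (-1.19, SE 0.38, limma adjusted p = 0.025), Rrm2 (-1.33, SE 0.44, limma adjusted p = 0.0279), Ube2c (-1.72, SE 0.62, limma adjusted p = 0.0432) and Ccnb2 (-2.38, SE 0.87, limma adjusted p = 0.0463) had the lowest p at 13 months. Tk1, the salvage kinase of thymidine, was at -3.06, -3.04 and -2.83 at 13 months and at -0.97, -2.82, -1.51 and -1.85 at 4 months. The groups did not overlap, as in 9 of 35 genes (25.7%) against 13.3% of all probes with lower levels, and the highest gland of 13 months was next to the lowest of 4 months. A second probe of Rrm2 gave -1.14. Foxm1 (0.80, SE 0.36, limma adjusted p = 0.111) lay on the other side, and its second probe gave 0.45. Of the replication genes, Mcm7 was at 0.43 (limma adjusted p = 0.154), and Mcm2 was at 0.38 and its second probe at -0.05. Pcna was at 0.06, 0.04 and 0.27 at 13 months and 0.19 to 0.40 at 4 months, a difference of -0.19 (limma adjusted p = 0.448).

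The brakes of the cycle and the genes of the G1 phase upstream of the list were seldom called. Of 17 brakes 17 were tested, and of 21 G1 cyclins, kinases and E2F factors 15. In young rats at 3 months none was called. Cdkn1a, the p53-induced inhibitor of cyclin-dependent kinases, was at 1.23 (SE 0.32, limma adjusted p = 0.0215), Ccng1, another p53 target, at 2.10 (SE 0.90, limma adjusted p = 0.0863) and Gadd45a at 0.64 (SE 0.29, limma adjusted p = 0.107), and Cdkn2c, an inhibitor of Cdk4 and Cdk6, at -0.93 (SE 0.36, limma adjusted p = 0.0606). The factors E2f3 (1.45), E2f6 (1.64) and E2f7 (1.62) had limma adjusted p of 0.0249, 0.0275 and 0.0249, and Tfdp1, the partner of E2F, was at -1.53 (SE 0.60, limma adjusted p = 0.0647). In that comparison 27.6% of all probes were higher at an unadjusted p under 0.05. The mean of the 15 G1 genes was 0.44 in the dim array and 0.04, 0.03 and -0.10 in the other exposed glands. In untreated rats of 4 months it was between -0.18 and 0.08. The differences of the brakes and G1 genes without the dim array are not given, so no rise is read from them.

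In the other comparisons 3 of these genes were called. Rb1, which holds E2F factors back, fell between 4 and 13 months in untreated rats (-1.36, SE 0.36, limma adjusted p = 0.00959). Ccnd2, cyclin D2 of the G1 phase, rose with age (0.12 per month, limma adjusted p = 0.00656). Cdkn2b, an inhibitor of Cdk4 and Cdk6, rose in adult rats 9 months after 50 kBq against untreated rats of 13 months (1.47, SE 0.32, limma adjusted p = 0.00843). All probes called were 2.36% lower at 13 months, 2.28% higher for the slope and 0.224% higher in adult rats at 9 months. All 3 calls involve the 3 untreated glands of 13 months.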

How the data were processed

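The authors deposited one Agilent Feature Extraction file per array, whose processed signal is a background-subtracted intensity without scaling between arrays. Columns of 0 or 1 in the deposited files, in other units, mark outlier spots and spots well above background. The processing notes of the submitters name Partek, with no version, and the methods name Nexus Expression. A deposited list of the authors' own fold changes was not used.

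Outlier and control spots were dropped. Each log2 signal was reduced by the 75th percentile of its array, and the spots of a probe were then averaged. Probes were named through RefSeq accessions (17998 of 30367). Probes well above background on at least 3 arrays entered a model with 1 mean for each of 13 groups, by limma 3.58.1 (R 4.3.3), and Benjamini-Hochberg adjustment over 24105 probes. A probe was called at an adjusted p under 0.01 and a fold change above 1.5 or below -1.5, slopes by the adjusted p alone. Exact permutation tests were two-sided, with a smallest p of 0.0286. A fold is a lower bound where a probe was well above background in at least 1 gland of a group and in 0 of the other, whose glands were then set no lower than the lowest such signal of their array. Scripts were tested on simulated data. Figures were drawn with Python 3.11.15 and matplotlib 3.10.9, tables with pandas 2.3.3, numpy 2.4.6, data.table (version 1.17.8) and jsonlite 2.0.0.

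The genes, lists and tests were chosen with earlier results of these data known. Genes were named with values by a rule: 16 of the list, of which Mki67, Top2a and Mcm5 had no probe, any called gene, the 2 highest and 2 lowest of each comparison and genes whose probes disagree. Other names were added with their values in view. Lists of markers covered basal squamous epithelium, follicular thyrocyte, skeletal muscle, thymocyte and thymic epithelium, lymphocyte, macrophage, C cell, parathyroid, cartilage, airway epithelium and adipocyte. Precision is limited by the number of arrays. Arrays came from 8 slides and 3 scan dates. Alternatives were quantile normalization, normexp background correction (offset 50), no filter or a stricter one, an adjusted p under 0.05, pairs of groups or the 19 arrays of the 9 month comparison alone, slide, scan date or replicate number in the fit, array weights, averaged probes and each array left out. Chosen after seeing the data were fits without the arrays that stood apart and with the squamous gene mean as a term. Normexp used the median spot signal, since the files hold no mean signal.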

Additional observations from a re-analysis of the deposited data

Results flagged for a closer look

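Dixon's test was run 140 times on groups of 4 arrays, for 14 items, namely single genes and the mean of the 35 genes. In 13 of these tests a gland lay far from the others. By chance about 1 in 20 independent tests would be so. These tests share arrays and genes that rise together, so no excess is read from the count. In young rats 3 months after 50 kBq the dim array, replicate 2, was such a gland for the mean of the 35 genes (1.10 against -0.42 to -0.35), for Ccnb1 (-2.81 against -4.99 to -4.94) and for Cdc20 (-0.45 against -2.68 to -2.64). Arrays of the set high in squamous genes were so for Ccnb1 in replicate 4 of the 0.5 kBq group (-2.18 against -5.09 to -4.59), for Plk1 in replicate 2 of the 50 kBq group at 9 months (-1.0 against -3.39 to -3.28), for Cdc20 in replicate 4 of adult rats at 3 months (-1.99 against -3.16 to -2.97) and for Pcna in replicate 1 of adult rats at 6 months (0.41 against 0.27 to 0.28). Replicate 4 of adult rats at 6 months, also of that set, was so for Tpx2 (0.88 against -0.62 to -0.44).

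The others were Aurkb in replicate 1 of the 500 kBq group (-6.40), Foxm1 in replicate 4 of the untreated rats of 10 months (-3.11), Mcm2 (-1.29) and Pcna (0.65) in replicate 1 of young rats at 6 months and Tyms in replicate 2 of adult rats at 3 months (-4.12). No explanation of these values was tested.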

How the results depend on the processing

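No gene was called lower in one setting and higher in another, and most settings left the number of called genes and the median of the 35 genes where they were. With an adjusted p under 0.05, 4 genes passed at 3 months in young rats (Aurka, Ccne2, Mcm2 and Plk1; 11.4% against 17.4% of all probes), 5 at 13 against 4 months in untreated rats (14.3% against 19.1%) and 3 for the age slope (8.57% against 17.2%). Array weights gave 4 genes in adult rats at 9 months (11.4% against 32.5%), 11 at 13 against 4 months (31.4% against 37.9%), 10 for the age slope (28.6% against 39.4%) and 5 for the young minus adult difference at 9 months (14.3% against 25.3%), so that every share lay below that of all probes. At 13 against 4 months 0 genes were called with normexp and with both groups alone. For the age slope 0 were called with quantile normalization, with normexp and with the squamous mean as a term, and 2 without the 3 arrays that stood apart. With the squamous mean and without those arrays, 2 were called at 13 against 4 months and 3 for the slope. The shares of all probes called in the fits without those arrays are not given, and nothing is read from these counts.

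With each array left out in turn, between 0 and 4 genes were called at 3 months in young rats (4 without its replicate 1, 3 without its replicate 4). Either omission leaves the dim array and the array low in thyrocyte genes in the smaller group. Between 0 and 3 were called at 13 against 4 months, and between 0 and 2 for the age slope. Shares of all probes are not given beside counts with an array left out or with the squamous mean as a term, here or above. These counts are therefore not read as a result about the genes. The Bub1 slope was lost without replicate 1 or 4 of the rats of 4 months, replicate 2 of those of 7 months or any of those of 13 months.

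The medians moved with normexp to 0.12 at 3 months in young rats, -0.43 in adult rats at 9 months, -0.30 at 13 against 4 months and -0.0145 for the young minus adult difference at 3 months, which quantile normalization put at -1.65. Normexp moved the median of all probes at 3 months from 0.26 to 0.62. With the squamous mean as a term the medians were -0.0708 (young, 6 months), 0.28 (5 kBq), 0.097 (500 kBq), -0.0908 (adult, 6 months), -0.0829 (7 against 4 months), 0.0119 (13 against 4 months) and -0.0647 (young minus adult, 3 months). Without the 3 arrays as well they were -0.27, 0.25, 0.088, -0.0651, 0.0916, -0.0746 and -0.0617, with -0.21 for adult rats at 3 months and -0.24 for young minus adult at 6 months. The causes were not tested.

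Correlations of same-numbered arrays were all above 0.1 in 1 of 12 comparisons, young rats at 6 months (0.161 to 0.34 in 3 pairs), where the block left 1 gene higher at an unadjusted p under 0.05. In the others they ranged from -0.54 to 0.53 and the numbers were not taken to pair the glands. With the replicate number as a block, 0 genes were called for the age slope (Bub1, limma adjusted p = 0.0109), and the other counts of called genes were as without it. Normexp on the mean signal was not run.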
